A study of Mus musculus with 15 samples.

Results

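The livers of mice given quercetin were compared with those of mice on the cholesterol-rich model diet, using the libraries of these groups, 6 of the 15 in the series. The members were set by group label and not by any measured value: model replicates 1, 2 and 5, and quercetin replicates 2, 5 and 8. All mice were wild type (WT), the tissue was liver, total RNA was extracted, and feeding lasted 6 weeks. The model diet was 78.8% standard feed with 1% cholesterol, 0.2% sodium cholate, egg yolk powder (10%) and lard (10%). The quercetin group ate a high-fat diet, whose make-up the labels do not state and which is taken here to be the model diet, with quercetin by oral gavage at 200 mg/kg/day. The series also holds 3 libraries each of a standard-feed control and of groups on a high-fat diet that were gavaged with kaempferol (100 mg/kg/day) or myricetin (75 mg/kg/day). Their levels stand beside some results below. Strain, sex, age, fasting, the hour of collection and any gavage of the model mice are not in the labels. Nor is it stated that each library is a separate mouse, so p-values measure only the spread between these libraries, which may be technical.

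Quercetin is a plant flavonol. The liver takes up flavonols, joins them to glucuronic acid, sulfate or methyl groups, and exports the products. The liver also turns cholesterol into bile acids, packs lipids into lipoproteins, and runs a strong circadian rhythm in which transcripts of many metabolic genes rise and fall over the day with feeding.

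Totals of the 6 libraries lay in the range 16241315 to 17322948 expected counts, and 14615 to 14907 genes had a count. Albumin took 4.28 to 5.86% of the counts in the model and 5.47 to 7.87% with quercetin. The summed level of 19 hepatocyte markers was 109817 to 136842 CPM (counts divided by library size, the usual unit of edgeR) in the model and 128428 to 146475 CPM with quercetin. The 4 Y-linked genes tested, Ddx3y, Eif2s3y, Kdm5d and Uty, had counts in all 6 libraries, with summed levels of 113 to 125 and 109 to 130.3 CPM. On the first principal component of the 15 libraries, which held 26.53% of their variance, the groups overlapped. Quercetin libraries lay there from -4.77 to 10.4 and model libraries from -11.3 to 1.56. On the second, which held 20.09%, quercetin libraries lay from 20.3 to 30.0 and model libraries from -17.2 to -12.7. Replicates differed by far more than sampling noise, by a mean chi-square per gene in which abundant genes weigh most. By this measure quercetin replicates 2 and 8 were the pair farthest apart (129 per gene and 1 degree of freedom). The median correlation of log2 CPM with the rest of the group was alike for the quercetin libraries, at 0.9851 to 0.9866.

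Of 12658 genes tested, 990 (7.82%) passed between quercetin and model at an adjusted p under 0.05. Of these 514 (4.06%) were higher and 476 (3.76%) lower with quercetin. Their median absolute log2 fold change was 0.623, and the median log2 fold change over all genes tested was 0.01. At an unadjusted p under 0.05 there were 2929 genes (23.1%). Library values of the groups did not overlap for 15.4% of the genes on the higher side and 14.2% on the lower side, whether or not the gene passed. In the authors' deposited table a q value under 0.05 was given to 953 of the tested genes, and 739 of them were among the 990 with the same sign. Below, library values are CPM, listed as model replicates 1, 2 and 5 and then quercetin replicates 2, 5 and 8. A change is a log2 fold change of quercetin minus model ± its standard error (SE, n = 3 libraries per group), and p is edgeR's quasi-likelihood p with Benjamini-Hochberg adjustment over all genes tested. By the naming rule 140 passing genes were eligible, and 65 of them also passed with any 1 of the 6 libraries left out. For others, the library whose omission gave the highest p is named, and the number of these 6 fits in which the gene passed is given where it was 3 or fewer.

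The circadian clock of liver cells is a loop. CLOCK or NPAS2 pairs with BMAL1 (the product of Arntl) and activates genes through the E-box CACGTG, among them those of the PER and CRY repressors, CIART, the DEC repressors (Bhlhe40 and Bhlhe41), REV-ERB (Nr1d1 and Nr1d2) and DBP, TEF and HLF. REV-ERB represses, and the ROR receptors, such as RORA, activate, Arntl and Nfil3 through a ROR element with the core TAGGTCA. DBP, TEF and HLF activate, and NFIL3 represses, genes with the D-box TTATGTAA. RefSeq windows on GRCm38.p6 (250 bases before to 50 after a start site) were found for 16 of the 19 clock genes and searched for these letters on both strands. CACGTG stood in windows of 5 of the 16 (Per1, Cry1, Ciart, Bhlhe41 and Tef), TTATGTAA in 1 (Per3) and TAGGTCA in 2 (Arntl and Nfil3), and no site overlapped one of another motif. Over all 27025 genes with a window the shares were 8.09%, 1.11% and 2.97%. Among the genes with an E-box, Ciart, Bhlhe41 and Tef were higher with quercetin, Cry1 was lower and Per1 did not pass. The windows below were chosen by the direction of their genes: Ciart and Per3 were higher, and Cry1, Nfil3 and Arntl were lower. Each runs 5′ to 3′ on the gene's strand over the 250 bases before the start site (for Arntl, over bases 19 to 48 counted from that site as 1), with the motif in capitals.
Ciart, chr3:95882229-95882478, minus strand, 3 E-boxes: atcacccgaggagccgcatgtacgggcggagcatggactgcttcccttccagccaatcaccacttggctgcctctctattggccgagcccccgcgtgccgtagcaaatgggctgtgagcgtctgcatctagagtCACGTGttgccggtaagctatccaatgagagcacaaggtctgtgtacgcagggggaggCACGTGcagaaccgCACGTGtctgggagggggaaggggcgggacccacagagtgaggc
Per3, chr4:151044666-151044915, minus strand, 2 D-boxes: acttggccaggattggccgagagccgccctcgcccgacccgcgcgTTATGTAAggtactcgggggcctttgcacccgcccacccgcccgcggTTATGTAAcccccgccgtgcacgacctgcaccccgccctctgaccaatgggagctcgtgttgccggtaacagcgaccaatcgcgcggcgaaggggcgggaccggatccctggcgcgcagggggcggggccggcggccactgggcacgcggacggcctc
Cry1, chr10:85185055-85185304, minus strand, 1 E-box: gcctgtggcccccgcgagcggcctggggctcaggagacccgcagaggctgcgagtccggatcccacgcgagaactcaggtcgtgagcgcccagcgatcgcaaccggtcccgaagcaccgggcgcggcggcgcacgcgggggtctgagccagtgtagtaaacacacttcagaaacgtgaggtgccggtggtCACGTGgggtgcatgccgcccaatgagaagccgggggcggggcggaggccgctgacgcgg
Nfil3, chr13:52981040-52981289, minus strand, 1 ROR core: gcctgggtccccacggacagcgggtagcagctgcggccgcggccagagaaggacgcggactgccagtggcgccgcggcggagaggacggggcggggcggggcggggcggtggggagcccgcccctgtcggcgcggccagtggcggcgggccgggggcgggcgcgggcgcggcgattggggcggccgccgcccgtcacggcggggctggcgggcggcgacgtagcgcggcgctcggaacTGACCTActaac
Arntl, chr7:113207529-113207558, plus strand, 1 ROR core: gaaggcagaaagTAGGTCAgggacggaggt
A match describes letters in a window and shows no binding.

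Of the 5 activators tested, 4 fell and none rose, while 3.76% of all genes tested fell. Arntl stood at 30.9, 27.2 and 27.8 in the model and at 3.56, 1.33 and 3.08 with quercetin (-3.43 ± 0.28, edgeR adjusted p = 1.62e-05), so that every quercetin library lay far below every model library. Clock, which encodes its partner, went from 48.3, 45.6 and 38.2 to 18.6, 17.5 and 27.1, a change of -1.07 ± 0.15 (edgeR adjusted p = 0.000593). Npas2, the paralog of Clock, was read at 7.47, 6.57 and 8.43 in the model and 0.222, 0.0555 and 0.185 with quercetin (edgeR adjusted p = 0.00684); the quercetin values rest on a few counts and no fold is given. Rora was 51.6, 51.4 and 49.4 and 41.2, 38.5 and 44.6, a difference of -0.29 ± 0.12 that did not pass (edgeR adjusted p = 0.165), though its groups did not overlap.

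Among 10 repressors, 5 rose and 1 fell, with a median of 2.28, while 4.06% of all genes tested rose. The REV-ERB genes were both higher: Nr1d1 was 4.16, 6.63 and 7.05 in the model and 151, 86.8 and 113 with quercetin, and Nr1d2 was 12.1, 12.1 and 17.7 and 80.5, 70.3 and 81.4, a change of 2.47 ± 0.29 (edgeR adjusted p = 0.000437). Per3, whose window holds the pair of D-boxes shown above, rose from 6.98, 4.59 and 7.38 to 49.3, 42.9 and 26.2 (2.65 ± 0.32, edgeR adjusted p = 0.000385). Ciart, with its 3 E-boxes, went from 0.735, 0.465 and 0.395 to 11.7, 24.6 and 7.14, and Bhlhe41 from 0.735, 0.814 and 1.19 to 7.003, 5.38 and 8.37. Cry1 was the repressor that fell, from 51.99, 44.5 and 48.02 to 4.11, 7.38 and 8.86 (-2.83 ± 0.23, edgeR adjusted p = 1.62e-05); its window holds an E-box, as that of Ciart does. The other period genes varied more between libraries. Per1 was 14.4, 5.70 and 5.34 and 37.4, 50.9 and 19.6 (2.08 ± 0.75, edgeR adjusted p = 0.124) and Per2 was 31.7, 33.5 and 18.5 and 31.01, 60.99 and 20.3 (0.42 ± 0.44, edgeR adjusted p = 0.615), with quercetin replicate 5 the highest library for both. Cry2 (0.15 ± 0.13) and Bhlhe40 (0.84 ± 0.36) also did not pass (edgeR adjusted p = 0.545 and 0.183).

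Of the D-box factors, Dbp was 2.20, 2.79 and 3.03 in the model and 141, 163 and 126 with quercetin (5.74 ± 0.47, edgeR adjusted p = 8.02e-05). Tef rose from 59.6, 50.5 and 62.5 to 227, 247 and 169 (1.90 ± 0.25, edgeR adjusted p = 0.000658), and Nfil3, their antagonist, fell from 66.6, 54.6 and 54.7 to 23.5, 15.8 and 22.9 (-1.50 ± 0.20, edgeR adjusted p = 0.000488). Hlf did not pass, with a difference of 0.20 ± 0.14 (edgeR adjusted p = 0.414). The counts of these 3 lists were the same whichever of the 6 libraries was left out. None of 8 kinases and ubiquitin ligase components that act on clock proteins passed (median 0.02, against 7.82% of all genes). At an unadjusted p under 0.05, 2 of these 8 were counted (23.1% of all genes), and DESeq2 called 0 higher and 0 lower. The hour of collection is not in the labels, so hour and group cannot be told apart.

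**Figure D1:**
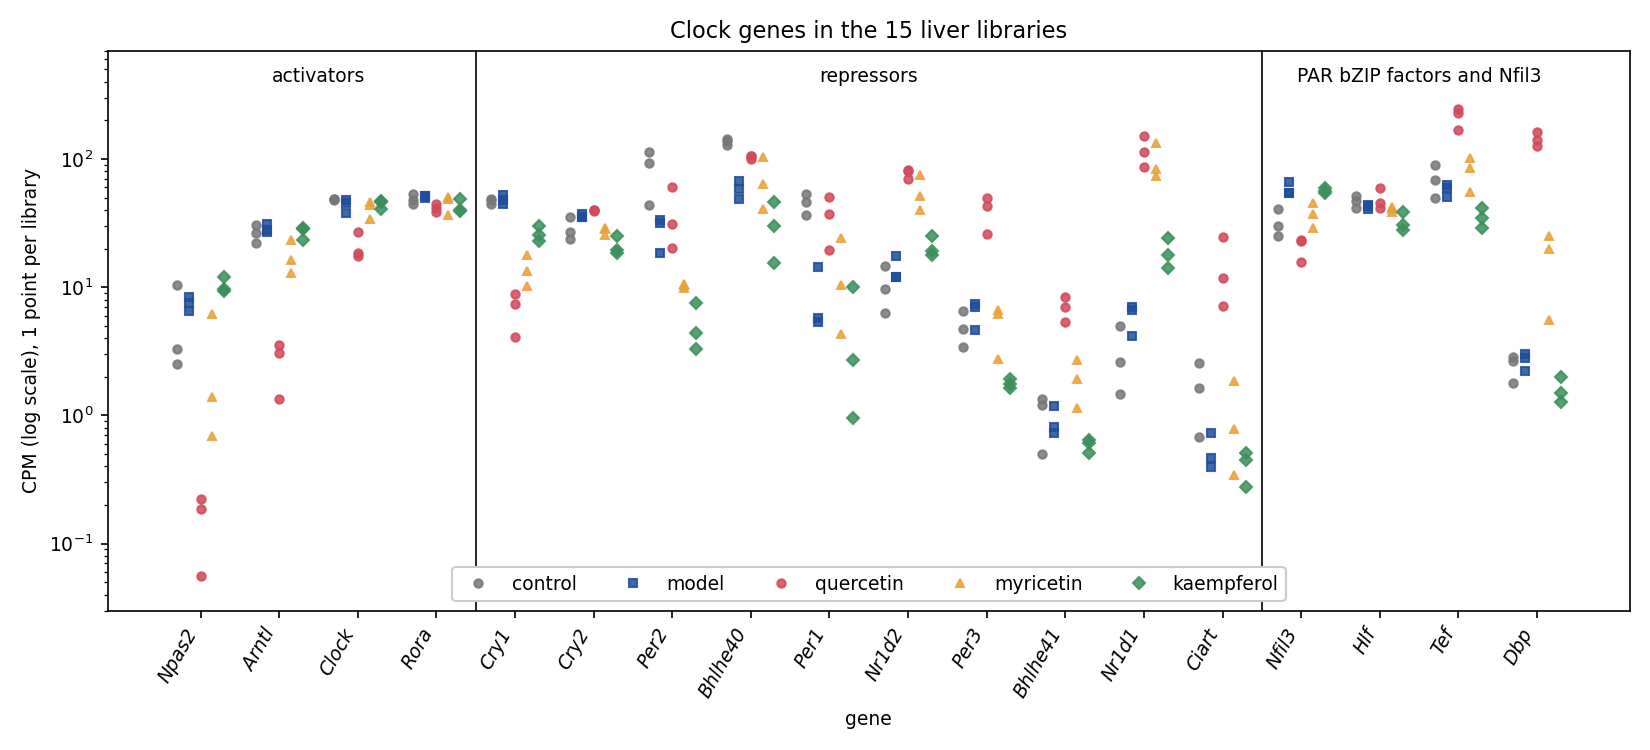
CPM of 18 clock genes on a log scale (vertical axis), 1 point per library, with 3 libraries in each of 5 groups marked by colour and shape and genes ordered within each class by their change. The quercetin points of Arntl lie between 1.33 and 3.56 CPM and those of the 3 model libraries between 27.2 and 30.9, while Dbp has quercetin points between 126 and 163 and model points between 2.20 and 3.03.

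The levels of these genes in the other groups are set beside those of quercetin without a test, since compound and dose differ together. For Nr1d1 the mean was 3.03 ± 1.82 CPM in the control, 117 ± 31.997 in quercetin, 97.2 ± 32.5 in myricetin and 18.7 ± 5.04 in kaempferol libraries (SD, n = 3). Dbp, in the same order, had means of 2.43 ± 0.553, 143 ± 18.7, 16.9 ± 10.1 and 1.58 ± 0.365 CPM. Means for Arntl were 26.4 ± 4.32, 2.66 ± 1.17, 17.5 ± 5.22 and 26.995 ± 2.98 CPM. Myricetin libraries thus overlapped quercetin for Nr1d1 and had means between those of quercetin and model for Arntl and Dbp. Control means lay near the model for all 3 genes, and the kaempferol mean of Nr1d1 lay above that of the control. Means for Cry1 were 46.9 ± 2.14 CPM in the control, 48.2 ± 3.72 in the model and 6.79 ± 2.43 in quercetin libraries. They were 13.8 ± 3.85 with myricetin and 26.1 ± 3.47 with kaempferol, so all 3 flavonol means of Cry1 lay below control and model. Per2 had a control mean of 83.3 ± 35.7 CPM, a model mean of 27.9 ± 8.19 CPM, and 37.4 ± 21.1, 10.3 ± 0.387 and 5.08 ± 2.17 CPM for the flavonols.

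Rhythmic output genes of the liver moved as well. Of 21 tested, 9 rose and 5 fell, with a median of 0.55 (4.06% of all genes rose and 3.76% fell). Upp2, a uridine phosphorylase, was 128, 72.9 and 131 in the model and 590.3, 350.3 and 411 with quercetin (2.03 ± 0.44, edgeR adjusted p = 0.0187), and the transcription factor Klf10 was 5.82, 5.82 and 11.3 and 36.1, 34.8 and 24.8 (2.07 ± 0.41, edgeR adjusted p = 0.0122). All quercetin libraries lay above all model libraries for both. Rgs16, a regulator of G protein signalling, went from 1.10, 1.16 and 1.98 to 12.1, 83.02 and 14.03, with quercetin replicate 5 several times above the other two. Without model replicate 2, edgeR adjusted p was 0.0843 for Upp2, 0.0641 for Klf10 and 0.0925 for Rgs16, and Upp2 and Rgs16 passed 3 of the 6 fits. Coq10b, which binds coenzyme Q, rose by 1.46 ± 0.27. Lonrf3, a ring finger gene, fell from 15.8, 18.1 and 19.2 to 2.89, 6.83 and 3.26 (-2.03 ± 0.28, edgeR adjusted p = 0.000667). Insig2, which holds the sterol sensor complex in the endoplasmic reticulum, fell from 231, 232 and 224 to 62.5, 42.1 and 119.9, and Cdkn1a, the cell cycle inhibitor p21, from 8.08, 9.07 and 11.3 to 2.83, 1.22 and 1.11. Mreg, melanoregulin, changed by -1.30 ± 0.20. Chosen after their values were seen, Usp2 (a deubiquitinase, 2.16 ± 0.59), St3gal5 (1.31 ± 0.32) and the vasopressin receptor gene Avpr1a (-0.86 ± 0.23) also passed, while Noct (2.16 ± 0.80) and Alas1 (1.59 ± 0.68) did not. The count of members that rose was 1 without model replicate 1 or 2, 3 without model replicate 5, 4 without quercetin replicate 5, and 6 and 8 without quercetin replicates 2 and 8. Between 4 and 6 members fell whichever library was left out.

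**Figure D2:**
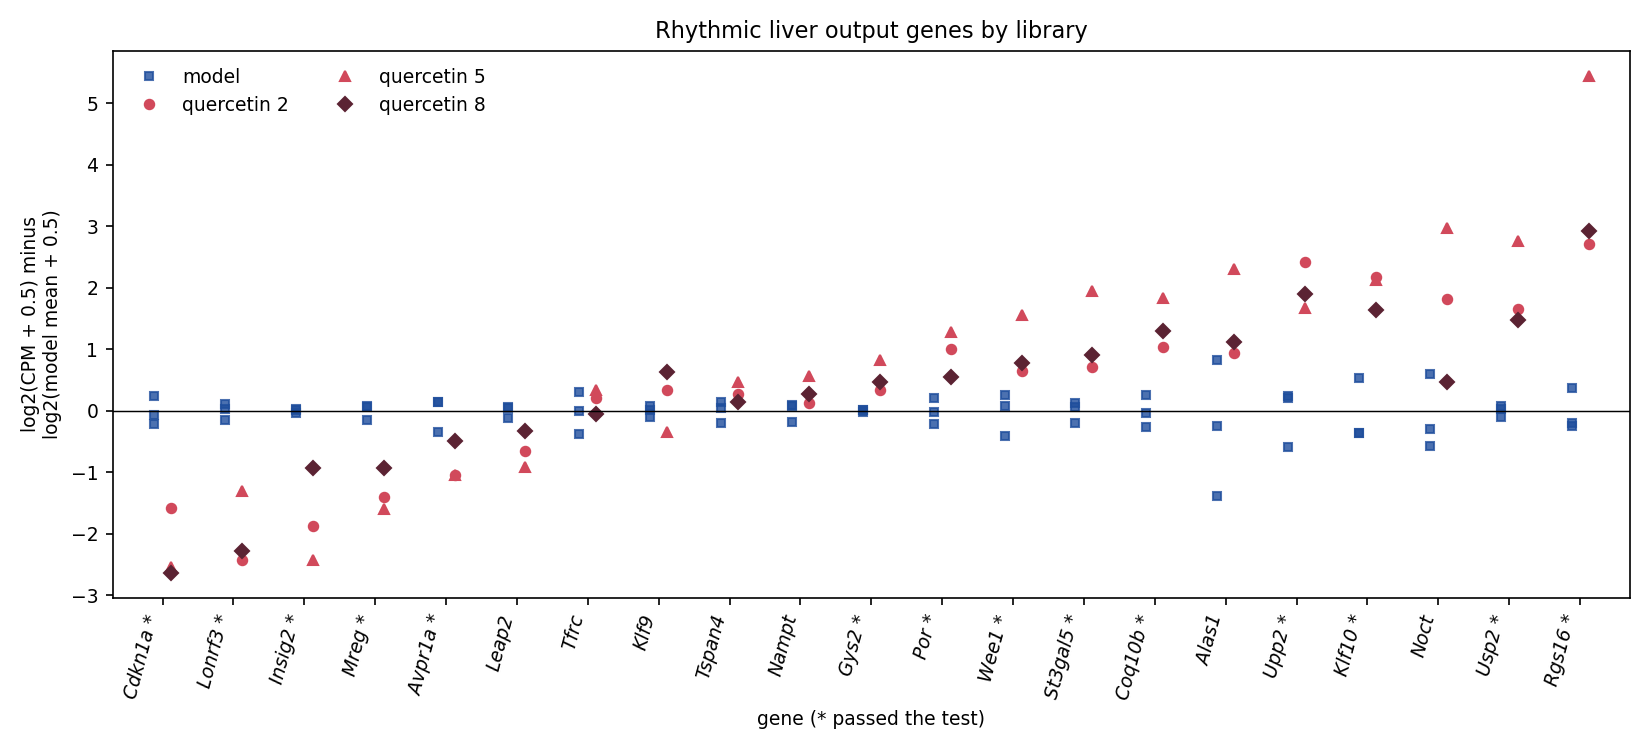
Each library's log2(CPM + 0.5) minus that of the model mean (vertical axis) for the 21 rhythmic output genes, with model libraries as squares and quercetin libraries marked by replicate; an asterisk marks the 14 genes that passed. Quercetin replicate 5 is the highest library for Rgs16, Usp2, Noct, Alas1 and St3gal5, and all 3 quercetin libraries lie below the model for Cdkn1a, Lonrf3, Insig2 and Mreg.

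The smallest p-values outside the clock lay mostly with genes that fell. Lgalsl, a galectin-related gene (GRCm38.p6 chromosome 11, 20823355 to 20831920), had the smallest p of all genes: its level was 29.03, 29.95 and 27.2 in the model and 7.50, 5.88 and 7.51 with quercetin, -2.04 ± 0.14 (edgeR adjusted p = 7.96e-07). Lrfn3, a cell adhesion gene (GRCm38.p6 chromosome 7, 30355514 to 30362772), was 17.4, 13.9 and 17.1 and 3.72, 2.05 and 3.94 (edgeR adjusted p = 8.97e-06). Both had narrow ranges within each group. Clpx, the ATPase subunit of the mitochondrial ClpXP protease (GRCm38.p6 chromosome 9, 65294251 to 65330658), fell from 321, 295 and 292 to 75.6, 49.9 and 92.6 (-2.06 ± 0.20, edgeR adjusted p = 3.38e-05). Pnrc1, a nuclear receptor coactivator, changed by -1.63 ± 0.16, Fam89a by -1.89 ± 0.22, the ubiquitin ligase gene Dtx4 by -1.47 ± 0.16, Ahcyl2 by -1.40 ± 0.15 and Arl4a by -0.92 ± 0.10. Arsa, the lysosomal arylsulfatase A, was the gene outside the clock with a rise among the 15 smallest p-values, from 30.7, 26.6 and 24.9 to 76.5, 53.4 and 60.99 (1.22 ± 0.14, edgeR adjusted p = 0.000148). Each of these genes passed whichever library was left out.

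By size of change, the genes that fell most included Capn8, a calpain protease (10.2, 8.43 and 19.9 in the model and 1.50, 2.16 and 2.52 with quercetin), and Zbtb7c (3.001, 11.3 and 5.20 and 2.001, 0.832 and 0.369). Moxd1 was 27.7, 21.5 and 60.3 in the model and 0, 0.222 and 0.369 with quercetin, where it rests on a few counts. Those that rose most included Mfsd2a, a transporter of lysophospholipids, at 1.41, 1.11 and 0.461 and 12.01, 44.8 and 7.14, and the lectin-like gene Clec2h, at 1.16, 0.989 and 2.31 and 15.1, 2.66 and 26.5. The quercetin libraries were spread widely for both: replicate 5 was highest for Mfsd2a and lowest for Clec2h. Zbtb7c missed the threshold without quercetin replicate 5 (edgeR adjusted p = 0.055), and Mfsd2a and Clec2h without model replicate 2 (edgeR adjusted p = 0.0814 and 0.168), and these passed 3 and 1 of the 6 fits.

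Sterol genes changed at a few points of the pathway. Of 26 genes of cholesterol synthesis and uptake 2 rose and none fell (median 0.02), where 4.06% of all genes rose. Fdft1, squalene synthase, was 42.5, 45.2 and 33.3 in the model and 60.1, 56.2 and 74.3 with quercetin (0.65 ± 0.18, edgeR adjusted p = 0.0414). No quercetin library of Fdft1 fell within the model range, and it missed the threshold in every fit that left out a library (edgeR adjusted p as high as 0.149 without model replicate 5). Its control mean was 75.5 ± 22.7 CPM.

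Of 16 bile acid synthesis genes 3 fell and none rose, where 3.76% of all genes fell. Cyp8b1, the 12-alpha-hydroxylase, was 532, 459.9 and 512 in the model and 119, 253 and 168 with quercetin. Cyp7b1, of the alternative pathway, was 317, 356 and 372 and 47.2, 120.4 and 180.3, and Cyp2c70, which makes muricholic acids in mice, was 807, 838 and 931 and 573, 253 and 526. All 3 were lower in each quercetin library, most in replicate 2 for Cyp8b1 and Cyp7b1 and in replicate 5 for Cyp2c70. Cyp7a1, the rate-limiting enzyme, was 152, 156 and 139 and 190.1, 177 and 76.3 and did not pass, with quercetin replicate 8 apart from the other two. Without model replicate 2 or 5 the count of members that fell was 1. Cyp7b1 passed 2 of the 6 fits (edgeR adjusted p = 0.0695 without quercetin replicate 5), and Cyp2c70 had 0.0598 without model replicate 5. Among 17 genes of sterol efflux and esterification 4 rose, where 4.06% of all genes did. Abcg5 and Abcg8, which form the biliary sterol exporter, were 108, 54.7 and 133 and 113, 60.3 and 136 in the model and 369, 143 and 245 and 331, 139 and 263 with quercetin, in the same order of libraries for both. Both missed the threshold without quercetin replicate 2 (edgeR adjusted p = 0.0931 and 0.079) and passed 2 of the 6 fits, and the count of efflux genes that rose was 1 without model replicate 1 or 2 or quercetin replicate 2 or 8. Soat2, which esterifies cholesterol, passed whichever library was left out. Of 18 genes of bile acid transport and its FXR control 2 rose: Slco1a4, an organic anion uptake carrier, by 1.28 ± 0.26, and Klb, the co-receptor for endocrine FGFs, by 0.88 ± 0.20. Without model replicate 1, edgeR's adjusted p of Slco1a4 was 0.0517, and without model replicate 2 that of Klb was 0.0661.

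Triglyceride and lipid droplet genes changed in both directions. Acsl1, which activates fatty acids, was 1266, 1336 and 1289 in the model and 608, 615 and 675 with quercetin (-1.04 ± 0.14, edgeR adjusted p = 0.000444), a tight fall in all 3 libraries. Lpin1, a phosphatidate phosphatase, rose from 22.96, 25.6 and 17.7 to 55.9, 157 and 91.1 (2.20 ± 0.51, edgeR adjusted p = 0.0247), with replicate 5 highest. Agpat2, an acyltransferase of the same pathway, fell by 0.49; in all, 1 of 14 members rose and 2 fell. Of 19 lipid droplet and lipolysis genes 2 rose and 3 fell, while 4.06% of all genes rose and 3.76% fell. Plin2, the main droplet coat protein of hepatocytes, was 532, 474 and 499 and 248, 252 and 382, and lysosomal acid lipase Lipa was 221, 198 and 178 and 134, 121 and 139 (-0.60 ± 0.10, edgeR adjusted p = 0.00258). Abhd5, the coactivator of the lipase encoded by Pnpla2, fell by 0.61, while Pnpla2 itself rose by 0.54 and Plin3 by 0.52. Acsl1 and Lipa passed whichever library was left out. The other 6 missed the threshold without some library, with edgeR adjusted p as high as 0.0874 for Lpin1 without model replicate 5, 0.138 for Agpat2 and 0.0604 for Plin2 without quercetin replicate 5, 0.225 for Abhd5 and 0.147 for Pnpla2 without model replicate 2, and 0.16 for Plin3 without model replicate 5. Of the 6 fits Plin3 passed 1, Lpin1, Agpat2, Abhd5 and Pnpla2 passed 2, and Plin2 passed 3.

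Fatty acid synthesis had 1 member that fell among 22, the elongase gene Elovl3, and a median change of 0.00 after rounding. Over all genes 4.06% rose and 3.76% fell. Srebf1, the regulator of this pathway, was 401, 336 and 402 in the model and 633, 501 and 499 with quercetin. Its groups did not overlap and the difference of 0.52 ± 0.17 did not pass (edgeR adjusted p = 0.066). Of 25 genes of fatty acid oxidation and ketogenesis 1 rose (Bdh1, 3-hydroxybutyrate dehydrogenase, by 0.33 ± 0.10, with an edgeR adjusted p of 0.172 without model replicate 1 and no pass in the 6 fits), and Ppara, the receptor that drives the pathway, differed by -0.04 ± 0.12 (edgeR adjusted p = 0.858). Pdk4, which blocks pyruvate oxidation and is a target of that receptor, fell from 9.12, 11.98 and 10.3 to 2.56, 1.05 and 1.42 (-2.64 ± 0.40, edgeR adjusted p = 0.00158). Cyp4a14, another target, was 5.14, 8.03 and 2.37 and 134, 298 and 54.5, and missed the threshold in every fit that left out a library (edgeR adjusted p as high as 0.149 without model replicate 1). Of 19 targets of the receptor 2 rose (none without model replicate 1 or 5, 1 without any other library) and 1 fell. Vldlr, a lipoprotein receptor, rose from 0.367, 0.465 and 0.725 to 5.39, 1.89 and 1.66 (2.52 ± 0.48, edgeR adjusted p = 0.00495), and Mttp, which loads lipid onto apolipoprotein B, fell by 0.41 (edgeR adjusted p = 0.16 without model replicate 2, passing 2 of the 6 fits).

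Glycogen genes moved both ways, 3 rising and 2 falling of 16 (4.06% of all genes rose and 3.76% fell). Ppp1r3c, which brings protein phosphatase 1 to glycogen, was 143, 151 and 131 in the model and 43.5, 23.9 and 40.5 with quercetin, and liver glycogen phosphorylase Pygl was 623, 636 and 589.98 and 381, 384 and 462. Both fell in every fit that left out a library. Gys2, liver glycogen synthase, was 152, 149.5 and 153 and 191, 267 and 209, and the phosphorylase kinase subunit gene Phkg2 was 18.1, 18.4 and 19.7 and 24.7, 25.2 and 23.7. None of the 3 rises passed without model replicate 1, and 1 passed without model replicate 2, model replicate 5 or quercetin replicate 5. Gys2 and Phkg2 passed 2 of the 6 fits. None of 20 genes of gluconeogenesis and glycolysis passed (7.82% of all genes did). Of these 20, 8 were at an unadjusted edgeR p under 0.05 (23.1% of all genes) and DESeq2 called 2 higher and 1 lower. Pck1, the gluconeogenic enzyme PEPCK, was 2012, 933 and 972 and 2675, 2516 and 2435 (0.96 ± 0.43, edgeR adjusted p = 0.208), and G6pc was 625, 385 and 401 and 278, 414 and 184 (-0.69 ± 0.28, edgeR adjusted p = 0.165). Model replicate 1 was the highest model library for both. Among 43 genes of the urea cycle and amino acid breakdown, serine dehydratase Sds rose from 80.6, 53.2 and 82.7 to 519, 198 and 195 (2.08 ± 0.38, edgeR adjusted p = 0.00834) and the glycine decarboxylase Gldc fell from 244, 221 and 213 to 148, 67.9 and 128 (-0.98 ± 0.21, edgeR adjusted p = 0.011); the other 41 did not pass.

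Part of the cytosolic ribosomal protein genes rose with quercetin. Of 80 cytosolic ribosomal protein genes 34 rose and none fell (4.06% of all genes rose), with a median of 0.38, and the other 46 did not pass. In 72 every quercetin library lay above every model library (15.4% of all genes). Rps12 was 131, 138 and 137 in the model and 180.03, 188 and 214 with quercetin (0.52 ± 0.10, edgeR adjusted p = 0.00363). Quercetin replicate 8 was the highest of the 6 libraries for Rps12, Rps27 and Rps18. The control mean of Rps12 was 169 ± 5.79 CPM. The count of cytosolic members that rose was 9 and 10 without model replicates 2 and 1, 13 without quercetin replicate 8, 19 without model replicate 5 or quercetin replicate 5, and 33 without quercetin replicate 2. It was 43 by DESeq2 and 0 with the replicate number as a block. Mitochondrial ribosomal proteins had 8 members that rose of 78 (median 0.21), among them Mrpl2 at 34.7, 37.9 and 41.3 and 50.7, 52.7 and 54.2, and this count was 0 without model replicate 1 and at most 3 without any other library. Of 47 proteasome genes 7 rose (median 0.21). The inducible subunit gene Psmb10 was 30.8, 24.5 and 28.5 and 44.1, 43.1 and 47.2 (0.68 ± 0.11, edgeR adjusted p = 0.00134) and Psmb3 was 80.8, 75.9 and 83.4 and 116, 102 and 135. The proteasome count was 2 without model replicate 1, model replicate 2 or quercetin replicate 8, and 4 without model replicate 5. Psmb3 missed the threshold without model replicate 2 (edgeR adjusted p = 0.0535). None of 77 respiratory chain subunit genes passed, with a median of 0.16; 15 were at an unadjusted edgeR p under 0.05 (23.1% of all genes) and DESeq2 called 1 higher and 0 lower. Of 28 ribosome biogenesis genes Rrp9, a small nucleolar RNA binding protein gene, rose (0.71 ± 0.20, edgeR adjusted p = 0.0391) and Nop16 fell (-0.37 ± 0.10, edgeR adjusted p = 0.0345), and each passed 1 of the 6 fits that left out a library (edgeR adjusted p as high as 0.167 without quercetin replicate 5 and 0.142 without model replicate 1). The share of counts taken by the 10 most abundant genes of a library was 21.1 to 23.6% in the model and 17.8 to 19.8% with quercetin, and the part of this in the ribosomal protein values was not tested.

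Some chaperone genes of the endoplasmic reticulum (ER) fell with quercetin. Of 18 ER stress genes 7 fell and none rose (3.76% of all genes fell), with a median of -0.56; the other 11 did not pass. In 11 of the 18 the quercetin libraries were all below the model (14.2% of all genes). Calr, calreticulin, was 1227, 1205 and 1316 in the model and 859, 725 and 779 with quercetin (-0.67 ± 0.12, edgeR adjusted p = 0.00419), and its partner calnexin, Canx, was 348, 363 and 313 and 253, 244 and 266. The disulfide isomerase genes Pdia4 and Pdia6 fell by 0.82 and 0.55. Without model replicate 2, edgeR adjusted p was 0.0762 for Canx, 0.0807 for Pdia4 and 0.0821 for Pdia6, which passed 3, 2 and 2 of the 6 fits. Hspa5, the ER chaperone BiP, taken up after its values were seen, was 1145, 1303 and 917 and 702, 757 and 452 and did not pass (edgeR adjusted p = 0.181). Without model replicate 1, model replicate 2 or quercetin replicate 5 the count was 1, and it was 3 without quercetin replicate 8 and 4 without model replicate 5 or quercetin replicate 2. Of 20 heat shock and chaperone genes 3 fell (1 without model replicate 1 or 2 or quercetin replicate 2 or 8), with a median of -0.45. Hspa4l, an HSP110 family member, was 23.9, 24.7 and 21.01 and 10.6, 12.4 and 12.9 (-0.96 ± 0.17, edgeR adjusted p = 0.00256) and passed in each such fit, whereas Hsp90aa1 was 289, 330.2 and 244 and 139, 168 and 119 with an edgeR adjusted p of 0.081 without model replicate 2, passing 2 of the 6. The control mean of Canx was 360.4 ± 29.7 CPM, near that of the model.

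Genes of the integrated stress response, which ATF4 controls, had 4 rises and no fall among 22 (median 0.36). Of all genes, 4.06% rose. Trib3, a pseudokinase, was 2.27, 2.27 and 1.65 in the model and 11.8, 6.27 and 8.80 with quercetin, and Eif4ebp1, a brake on cap-dependent translation, was 30.3, 27.97 and 28.7 and 37.8, 48.6 and 48.2 (0.63 ± 0.10, edgeR adjusted p = 0.00179). Vldlr, given above, is also on this list. The transcription factor Cebpb rose by 0.96 (edgeR adjusted p = 0.137 without model replicate 2, passing 1 of the 6 fits). Cold-inducible RNA-binding genes had 1 rise of 4: Rbm3 went from 29.5, 32.98 and 33.0001 to 55.3, 46.1 and 40.1 (0.57 ± 0.11, edgeR adjusted p = 0.00474), and Cirbp was 14.6, 11.8 and 16.3 and 21.6, 17.5 and 21.05 (0.49 ± 0.19, edgeR adjusted p = 0.125).

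**Figure D3:**
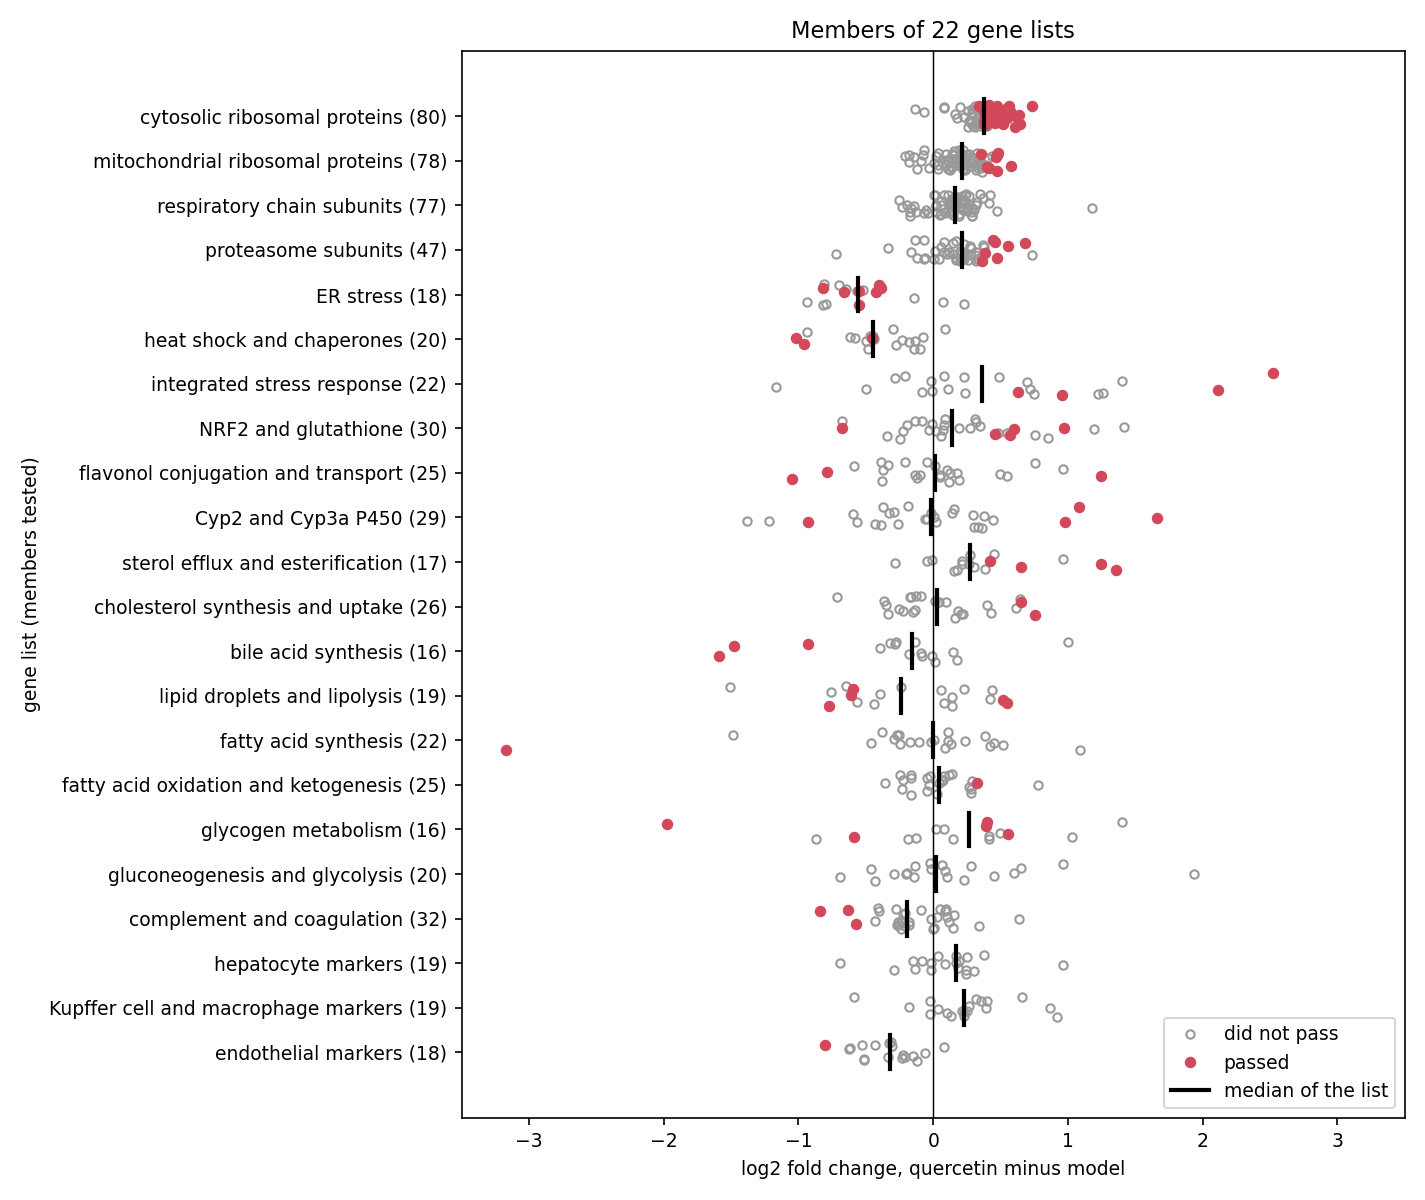
Log2 fold change of quercetin minus model (horizontal axis) for every tested member of 22 gene lists, with the number tested in brackets; filled points passed the test, open points did not, and the bar is the median of the list. The ribosomal protein bar lies at 0.38 and that of ER stress at -0.56, and 1 member with a change beyond 3.5 lies outside the axis.

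Genes for handling metals and oxidants included some of the highest changes. Mt1 and Mt2 encode metallothioneins, small proteins that bind zinc and copper. Mt1 was 1.90, 1.28 and 0.856 in the model and 48.4, 39.1 and 7.57 with quercetin, and Mt2 was 0.551, 0.116 and 0.198 and 16.8, 14.6 and 3.02. Quercetin replicates 2 and 5 were several times above replicate 8 for both, and both missed the threshold without model replicate 2 (edgeR adjusted p = 0.101 and 0.107) and passed 1 of the 6 fits. Slc39a14, which imports zinc, iron and manganese, was 129, 129 and 113 and 211, 210.4 and 169 (0.67 ± 0.11, edgeR adjusted p = 0.00179). Slc30a10, a manganese exporter, fell from 63.1, 70.8 and 61.7 to 30.01, 25.03 and 30.03 (-1.20 ± 0.12, edgeR adjusted p = 3.38e-05). The importer and the exporter thus changed in opposite directions in every library. Over all genes 4.06% rose and 3.76% fell. Of 11 genes on this list 3 rose (1 without any model replicate or without quercetin replicate 2 or 5) and 1 fell, and of 23 genes of iron and heme 1 fell, the heme synthesis enzyme gene Cpox, from 122, 138 and 128 to 83.8, 94.7 and 90.7 (-0.53 ± 0.11, edgeR adjusted p = 0.00741).

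The glutathione genes moved both ways, with 4 that rose and 1 that fell of 30 on the NRF2 list (median 0.14). Over all genes tested 4.06% rose and 3.76% fell. Gss, glutathione synthetase, was 73.7, 77.7 and 69.7 in the model and 127, 97.7 and 104 with quercetin (0.57 ± 0.12, edgeR adjusted p = 0.00799). Gclc, the catalytic subunit of the enzyme that acts before it, was 488, 418 and 443 and 246, 252 and 348 (-0.67 ± 0.17, edgeR adjusted p = 0.0219). Gpx4, the lipid peroxide reductase, rose by 0.46, and the transferase genes Gstm1 and Gstm3 by 0.60 and 0.97. Without model replicate 5, edgeR adjusted p was 0.183 for Gstm1, which passed none of the 6 fits, and 0.119 for Gstm3, which passed 1. Gclc and Gpx4 passed 3 (edgeR adjusted p = 0.0887 without model replicate 1 and 0.0866 without model replicate 2). Gss passed whichever library was left out, and the count of rises was 1 without model replicate 1 or 2 and 2 without model replicate 5 or quercetin replicate 2. Nqo1 was 2.51, 3.90 and 2.96 and 6.17, 4.11 and 3.45 (0.55 ± 0.24, edgeR adjusted p = 0.171) and Hmox1 19.9, 20.6 and 28.9 and 24.1, 18.2 and 18.03, neither of which passed. None of 9 aryl hydrocarbon receptor targets passed (7.82% of all genes did). Of these 9, 4 had an unadjusted edgeR p under 0.05 (23.1% of all genes) and DESeq2 called 0 higher and 1 lower.

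Genes whose products conjugate and carry flavonols changed both ways: 1 rose and 2 fell of 25 (7.82% of all genes passed), with a median of 0.01. At an unadjusted edgeR p under 0.05 there were 9 of them (23.1% of all genes). Sult1c2, a sulfotransferase, was 2.02, 1.51 and 2.37 in the model and 5.78, 4.05 and 4.12 with quercetin (1.24 ± 0.24, edgeR adjusted p = 0.00495). Ugt2b1, a glucuronosyltransferase, was 1018, 803 and 1088 and 369, 458 and 582 (-1.05 ± 0.17, edgeR adjusted p = 0.00178). Abcg2, an exporter of conjugates, was 116, 133 and 151 and 61.5, 71.6 and 98.2 (-0.79 ± 0.19), with an edgeR adjusted p of 0.0217, and 0.0793 without quercetin replicate 5, passing 2 of the 6 fits. The glucuronosyltransferase gene Ugt1a1 was 591, 490.4 and 439 and 442, 689 and 584 (0.17 ± 0.14, edgeR adjusted p = 0.51), and the efflux pump gene Abcc2 differed by 0.12 ± 0.15 (edgeR adjusted p = 0.675). The Ugt1a genes share exons, so reads may have been divided between them. Ugt1a6a (-0.38 ± 0.12, edgeR adjusted p = 0.0563) and Ugp2, which makes the UDP-glucose from which glucuronic acid is drawn (0.50 ± 0.15, edgeR adjusted p = 0.0521), lay closest to the threshold. Of 29 Cyp2, Cyp3a and partner genes 3 rose (none without model replicate 2 or quercetin replicate 5) and 1 fell. Cyp2a5, a xenobiotic hydroxylase, went from 258, 151 and 242 to 571, 973 and 515, and Por, the reductase that feeds electrons to P450 enzymes, from 226, 167 and 193 to 394, 477 and 285. Without model replicate 2 their edgeR adjusted p-values were 0.0776 and 0.124, and Por passed 1 of the 6 fits.

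Male livers express a set of genes above female livers under pulsed growth hormone. Of 25 such male-biased genes 7 fell and none rose (3.76% of all genes fell), with a median of -0.60, and 18 did not pass. In 15 all quercetin libraries lay below the model, against 14.2% of all genes. Elovl3 was 997, 787 and 924 in the model and 90.1, 44.1 and 166 with quercetin, and Nat8f5 was 53.5, 50.9 and 76.5 and 6.78, 12.5 and 8.49. Here all 3 quercetin libraries were far from the model. The major urinary protein genes, named after their values were seen and near-identical in sequence, differed between quercetin libraries instead. Mup7 was 26923, 30926 and 36686 in the model and 292, 3739 and 19086 with quercetin, and Mup17 was 3929.9, 4737 and 11438 and 19.8, 70.7 and 2788. All quercetin libraries lay below all model libraries for both, replicate 8 being the highest of them and replicate 2 the lowest, and neither passed (edgeR adjusted p = 0.231 and 0.244). Selenbp2, also taken after its values were seen, showed the same replicate nearest the model, at 1854, 2229 and 2709.6 and 412, 191 and 948 (edgeR adjusted p = 0.0233). The number of male-biased genes that fell was 13 without quercetin replicate 8, and 5 without any 1 of the model replicates.

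Of 24 female-biased genes listed, the filter on low counts kept 12. Among these 2 rose (4.06% of all genes did), and the median was 1.87. In 8 all quercetin libraries lay above the model (15.4% of all genes). A gene low in the model could pass the filter through a group where it was high. The median and the 8 are therefore not read as a result about the list. Abcd2, a peroxisomal fatty acid transporter, was 2.45, 3.43 and 1.51 in the model and 22.8, 9.21 and 5.97 with quercetin, with replicate 8 again nearest the model. Neither rise passed without model replicate 1 or model replicate 5. Of 14 genes of the growth hormone and IGF1 axis 3 fell (3.76% of all genes did), and 1 without quercetin replicate 2 or 5. Stat5a and Stat5b encode the transcription factors that growth hormone activates. Stat5a was 24.6, 24.1 and 25.8 and 12.01, 13.2 and 11.8 (-1.01 ± 0.14, edgeR adjusted p = 0.000545), and Stat5b 91.1, 71.7 and 92.7 and 53.6, 45.9 and 65.7 (-0.63 ± 0.15, edgeR adjusted p = 0.0181, and 0.0785 without quercetin replicate 5, passing 2 of the 6 fits). Stat5a levels were alike in all 3 quercetin libraries. Cish, a STAT5 target named after its values were seen, was 1.41, 1.63 and 1.65 and 5.78, 3.72 and 36.6, with replicate 8 far above the rest, and did not pass (edgeR adjusted p = 0.169). Igf1 differed by -0.13 ± 0.13 (edgeR adjusted p = 0.572).

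**Figure D4:**
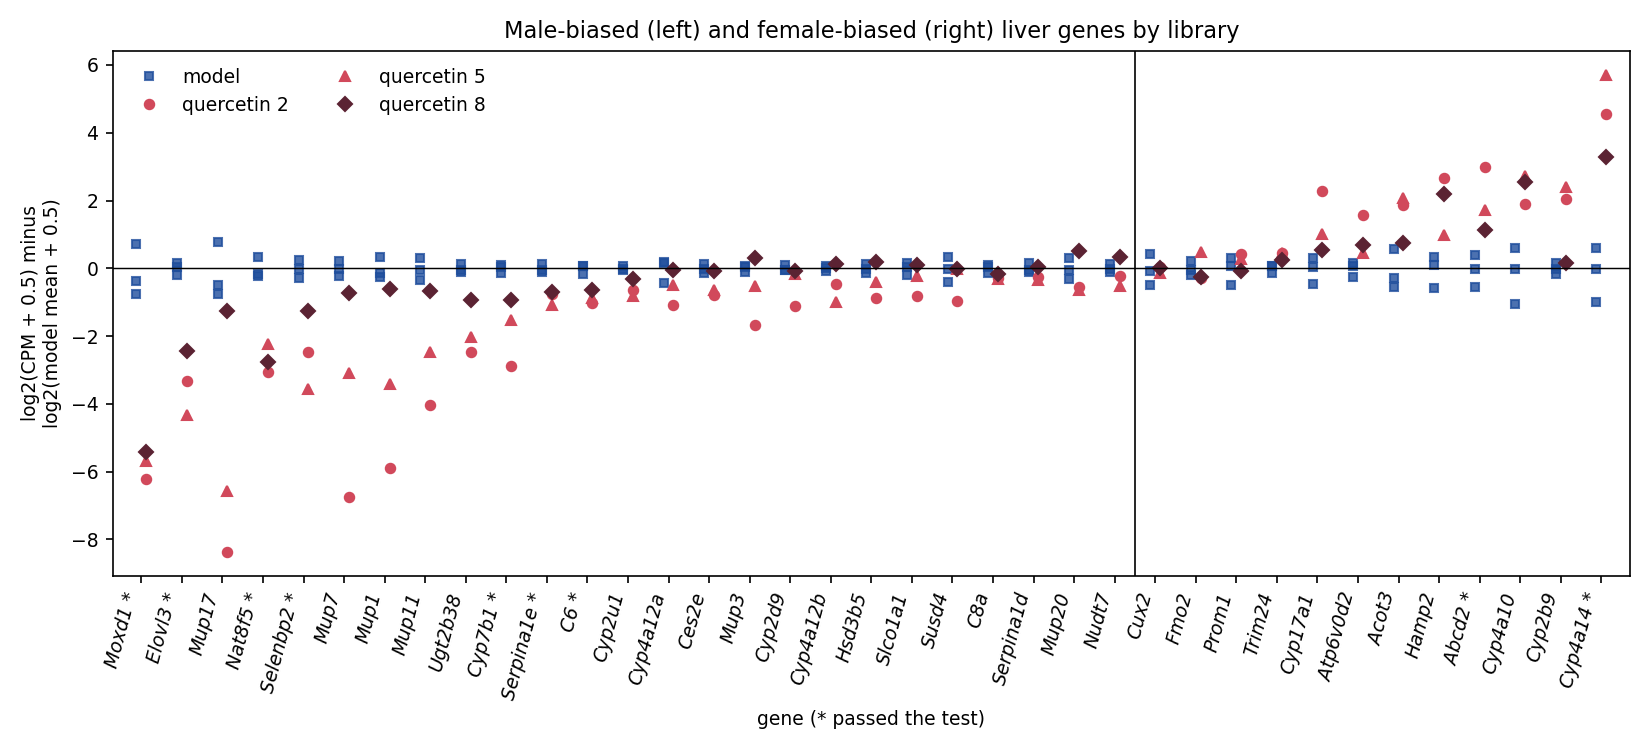
Each library's log2(CPM + 0.5) minus that of the model mean (vertical axis) for 25 male-biased genes (left of the line) and 12 female-biased genes (right), with model libraries as squares, quercetin libraries marked by replicate and an asterisk for genes that passed. For Mup7 the quercetin libraries stand at 292, 3739 and 19086 CPM in the order of replicates 2, 5 and 8, against model libraries at 26923, 30926 and 36686 CPM.

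Hormone response lists had 3 and 2 passing members, where 7.82% of all genes passed. Of 19 glucocorticoid-responsive genes 2 rose, Mt2 and the transcription factor gene Zbtb16, and 1 fell, Cdkn1a. Zbtb16 was 13.5, 16.5 and 14.4 in the model and 41.02, 47.3 and 19.9 with quercetin (1.29 ± 0.28, edgeR adjusted p = 0.0173), with replicate 8 nearest the model, and missed the threshold without model replicate 1 (edgeR adjusted p = 0.0736), passing 1 of the 6 fits. Of 19 genes of insulin signalling and fasting 1 rose, Socs3, and 1 fell, Grb10, an adaptor that restrains the insulin receptor, from 3.92, 6.11 and 6.26 to 2.67, 2.83 and 2.71 (-0.99 ± 0.23, edgeR adjusted p = 0.0147, and 0.0714 without model replicate 2).

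Between 1 and 4 members of each immune list passed, where 7.82% of all genes did. Complement and coagulation had 3 falls of 32 (median -0.19), and they were parts of the membrane attack complex: C6 was 396, 466 and 467 in the model and 216, 243 and 285 with quercetin, C8b was 563, 551 and 532 and 338, 322 and 404 (-0.63 ± 0.11, edgeR adjusted p = 0.00305), and C9 was 711, 662 and 715 and 446, 400.4 and 556 (-0.57 ± 0.15, edgeR adjusted p = 0.0247). C6 and C8b passed in every fit that left out a library, and C9 had an edgeR adjusted p of 0.105 without quercetin replicate 5 and passed 1 of the 6. Of 29 interferon-stimulated genes 3 rose (1 without model replicate 2 or 5 or quercetin replicate 5) and 1 fell. Isg15, a ubiquitin-like modifier, was 8.14, 6.51 and 7.71 and 14.5, 14.2 and 12.99, and Cmpk2, a mitochondrial nucleotide kinase, was 7.29, 6.28 and 7.31 and 3.84, 2.83 and 4.55, so members of this list moved in opposite directions. Of 27 acute phase genes 1 rose, Socs3, from 3.43, 6.28 and 3.69 to 15.2, 11.99 and 29.9. Among 16 immediate early genes Junb rose from 16.1, 10.7 and 27.8 to 35.8, 30.7 and 40.2 (edgeR adjusted p = 0.0239, and 0.101 without model replicate 1, passing 2 of the 6 fits).

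Marker lists of other cell types held between 0 and 2 genes that passed, where 7.82% of all genes did. None of 19 Kupffer cell and macrophage genes passed, and their summed level was 325 to 465 CPM in the model and 427 to 488 CPM with quercetin. At an unadjusted edgeR p under 0.05 there were 0 of these (23.1% of all genes), and DESeq2 called 0 higher and 0 lower. Endothelial markers summed to 372 to 488 and 287 to 420.1 CPM, and 1 of 18 fell, Vwf, from 8.45, 7.50 and 8.23 to 4.61, 4.66 and 4.55 (edgeR adjusted p = 0.0598 without model replicate 1). The endothelial list had a median of -0.32, with 7 of 18 at an unadjusted edgeR p under 0.05. Stellate cell markers summed to 389 to 432 and 247 to 435 CPM with none of 15 passing edgeR (1 at an unadjusted p under 0.05, and 0 higher and 1 lower by DESeq2). Cd4, the helper T cell marker that macrophages can also express, was 4.84, 4.94 and 7.97 and 1.78, 1.50 and 1.48 (-1.89 ± 0.38, edgeR adjusted p = 0.00779), and was the 1 of 11 T and natural killer cell genes that passed. Of 12 neutrophil genes listed, the filter on low counts kept 4. A gene low in the model could pass this filter through a group where it was high. The rises on this list are therefore not read as a result about neutrophil genes. S100a8 and S100a9 rose, at 0.367, 0.233 and 0.593 and 2.06, 2.61 and 0.8 CPM for S100a8. Neither passed without model replicate 2 or quercetin replicate 5. S100a8 passed 2 of the 6 fits (edgeR adjusted p = 0.1025 without model replicate 2). Cholangiocyte markers summed to 72.2 to 84.2 and 59.5 to 94.3 CPM, with 1 of 7 that fell (the fall passed only without model replicate 2 among the 6 fits), and erythroid markers to 381 to 801 and 316 to 498 CPM with none of 5 passing. In whole liver, fewer cells of a type and less RNA per cell cannot be told apart.

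Adipocyte markers summed to 3724 to 4915 CPM in the model and 2286 to 3024 CPM with quercetin. Nearly all of this was Car3, carbonic anhydrase 3, which hepatocytes also express, at 4088, 3700.5 and 4859 and 2283, 2268 and 2992 (edgeR adjusted p = 0.0665). The droplet gene Cidec was 1.29, 1.86 and 3.16 and 0.278, 0.888 and 1.05 (edgeR adjusted p = 0.0971). Both genes were taken up after their values were seen, neither passed, and Adipoq, the defining adipocyte gene, was not among the genes tested. B cell markers summed to 8.90 to 10.9 and 12.001 to 20.1 CPM, with quercetin replicate 5 highest for Jchain, which was 2.45, 2.33 and 2.57 and 4.67, 14.4 and 3.57. Jchain passed 2 of the 6 fits (edgeR adjusted p = 0.137 without quercetin replicate 5).

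Cell growth genes changed in parts. Of 34 cell cycle genes 4 rose and 2 fell, while 4.06% of all genes rose and 3.76% fell. Gadd45a, a stress-induced growth arrest gene, was 2.69, 5.06 and 5.20 in the model and 10.8, 10.3 and 12.3 with quercetin (1.37 ± 0.30, edgeR adjusted p = 0.0137), and Btg1, an antiproliferative gene, was 96.3, 63.4 and 97.9 and 52.7, 36.5 and 50.8 (-0.88 ± 0.19, edgeR adjusted p = 0.0118). These and Cdkn1a, given above, are all inhibitors of cell division and went both ways. Without model replicate 1 none of the 4 rises passed, and the edgeR adjusted p-values were 0.0635 for Gadd45a and 0.0533 for Btg1. In polyamine metabolism 3 of 14 rose and 1 fell. Odc1, which makes putrescine, was 72.1, 95.6 and 76.7 and 60.8, 48.5 and 54.9 (-0.57 ± 0.13, edgeR adjusted p = 0.0134), and Sat1, which acetylates polyamines for breakdown, was 41.7, 38.8 and 49.5 and 58.1, 52.3 and 78.9 (0.54 ± 0.15, edgeR adjusted p = 0.0347). Without model replicate 2 these were 0.0951 and 0.152 (Sat1 passed 3 of the 6 fits), and no rise on this list passed without model replicate 1 or 2.

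Against the other groups of the series the quercetin libraries differed in 1470 genes (11.6%) from the standard-feed control, in 101 (0.798%) from myricetin and in 612 (4.83%) from kaempferol. These comparisons share the quercetin libraries, and the flavonol groups differ in dose as well as in compound, so the counts do not rank the compounds. Values of the model comparison stand beside them for a few genes. Lgalsl had means of 27.9 ± 1.03 CPM in the control, 15.4 ± 3.26 with myricetin and 24.1 ± 0.448 with kaempferol, against 6.96 ± 0.938 in quercetin libraries (SD, n = 3). Quercetin had the lowest mean of the 5 groups for this gene. Cyp8b1 stood at 492 ± 104 CPM in the control, 358 ± 36.8 with myricetin and 437 ± 83.9 with kaempferol, also above its quercetin libraries. Calr was 1232 ± 191, 849.5 ± 89.7 and 888 ± 63.1 CPM in the same order, so that all 3 flavonol groups had lower means than control and model for this ER chaperone.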

How the data were processed

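Total liver RNA was measured in 15 libraries of 5 groups with 3 libraries each. The submitters' processing notes list RSEM 1.3.1, HISAT2 2.1.0, DESeq2 1.4.5 and Bowtie2 2.3.4.3 with the build GRCm38.p6. Their role and order, the filters and the strand setting are not given in the sources used here. The authors deposited 1 table of 16809 genes with expected counts, which the file headers call read counts and which are not scaled. Of these values 5.37% were not whole, and they were rounded. For quercetin against model the authors also deposited a log2 fold change and a q-value from DESeq2, per the file headers, which served only for counts of shared calls. Another 30 per-sample columns (FPKM and TPM) and 15 columns of group averages were not used.

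In R 4.3.3, edgeR 4.0.16 kept 12658 genes by its filter on low counts and scaled libraries by trimmed mean of M values (TMM). A robust quasi-likelihood model with 1 mean per group over all 15 libraries (10 residual degrees of freedom) was fitted, tests were 2-sided and p-values had Benjamini-Hochberg adjustment over all genes tested. The threshold on adjusted p was 0.05. The SE is the absolute log2 fold change over the square root of the F statistic, with a median of 0.162, and the biological coefficient of variation was 0.155. Library totals of 15853767 to 17576502 counts set the counting precision. CPM use the TMM-scaled library size and are not divided by length, so levels of different genes are not compared. Fold changes of genes with few counts in a group depend on edgeR's prior count.

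The members and the gene lists were chosen with earlier results of these data known. Genes named are all members of the clock, cold-inducible and flavonol lists, and the 10 highest and 10 lowest changes with groups that do not overlap and at least 5 CPM in the higher group. Also named are up to 4 passing members per direction of each other list, 19 fixed genes, and the 15 smallest p-values (187 genes in all, of which those that matter are given). Symbols of gene models without a name were left out of the rankings. Some genes that the rule selects are not reported here. Genes outside this rule are marked in the text as taken after their values were seen. Near-identical genes (Mup, Ugt1a, Ugt2b, Gstm, Nat8f, Cyp2, Mt and ribosomal protein genes with processed copies) and genes that overlap on opposite strands are uncertain, since reads could be divided between them. Promoter windows came from a RefSeq table of GRCm38.p6. Alternatives were DESeq2 1.42.0, limma-voom (limma 3.58.1), other scalings, no filter, no robust estimation, the 6 libraries alone, a fold of at least 1.5, the replicate number as a block, and leaving out each library. Only the edgeR fit of quercetin against model was tried on simulated counts, which had the same spread for all genes. The alternatives were not tried in this way.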

Additional observations from a re-analysis of the deposited data

How the results depend on the processing

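The fit used above gave 990 genes between quercetin and model. The count was between 848 and 1288 with DESeq2, limma-voom, other scalings, no filter, no robust estimation or the 6 libraries alone. Of the 990 genes, these alternatives kept between 738 (6 libraries alone) and 986 (DESeq2). Requiring a fold of at least 1.5 left 541. Leaving out 1 library gave 429 (without model replicate 2) to 788 (without quercetin replicate 8). Without model replicate 1 the count was 434, without model replicate 5 it was 602 and without quercetin replicate 5 it was 546. Each such fit has fewer samples. Other scalings moved the median of all genes by -0.00756 to -0.00512 on the log2 scale and the higher share from 51.9% to between 49.5 and 50.2%.

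The 1470 calls against control became 768 with 6 libraries alone, 902 with a fold of at least 1.5, and 669 (without control replicate 2) to 1560 with 1 library left out. It was 708 without control replicate 3 and 777 without quercetin replicate 2. Calls against myricetin were 101 in the fit used above. DESeq2 gave 269, 6 libraries alone 10, and fits without 1 library 26 (without myricetin replicate 5) to 202 (without quercetin replicate 8). This count was 35, 33 and 30 without quercetin replicate 2, quercetin replicate 5 and myricetin replicate 7. Those against kaempferol were 612, while DESeq2 gave 983, 6 libraries alone 251 and a fold of at least 1.5 gave 405. Fits without 1 library gave 285 (without kaempferol replicate 3) to 706. The kaempferol count was 359, 335 and 391 without quercetin replicate 2, quercetin replicate 5 and kaempferol replicate 8. The cause was not tested.

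The labels do not say that replicate numbers pair these samples. Deviations of the libraries numbered 2 correlated at -0.0752 and those numbered 5 at -0.17. So few pairs cannot show whether the numbers mark something shared. With the number as a block, 236 genes passed between quercetin and model (222 of them among the 990), 201 against control, 6 against myricetin and 185 against kaempferol. Model and quercetin share only the numbers 2 and 5. With the block, rises went from 34 to 0 for cytosolic and from 8 to 0 for mitochondrial ribosomal proteins. Rises of rhythmic output genes went from 9 to 1, and falls of ER stress genes from 7 to 1. Clock activators (4 falls) and clock repressors (5 rises and 1 fall) kept their counts.

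Of the 187 named genes 140 passed, 65 of these in every fit without 1 library and 50 under every other alternative. Of the 47 that did not pass, 3 passed in some fit without a library. The sign turned for 15, none of which passed. With 1 library left out their log2 fold changes ran from -0.0786 to 0.16 for Abcc3, from -0.66 to 0.33 for Cd36, from -0.23 to 0.30 for Cyp7a1, from -0.12 to 0.72 for Per2 and from -0.13 to 0.28 for Slco1b2. They also ran from -0.42 to 1.398 for Sqle, from -0.12 to 0.0895 for Srsf7, from -0.19 to 0.027 for Sult1d1, from -0.15 to 0.056 for Ugt1a6b, from -0.18 to 0.22 for Ugt2b35 and from -0.039 to 0.25 for Ugt2b36. With the block they were -0.0696 for Abcc3, 0.34 for Cyp7a1, 0.027 for Papss2, 0.051 for Ppara, 0.047 for Scd1, -0.15 for Slco1b2, -0.013 for Ugt2b36 and -0.00963 for Ugt2b5, and limma-voom gave -0.0012 for Abcc3. At these depths, values well under 1 CPM rest on few counts.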
